A study of Rattus norvegicus with 2 samples.

Results

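The genes described here encode the proteins that hold lens epithelial cells (LECs) to each other and to the capsule beneath them, namely integrins, cadherins, catenins, desmosomal cadherins, claudins, occludin, the ZO scaffold proteins and nectins. They were taken by gene symbol from the array annotation, and 91 of the 18166 genes measured belong to them. Each of the 91 was read by 1 probe set that names no other gene. The symbol rule also took *Itgb3bp*, which encodes a centromere protein and not an integrin, and it is kept and named apart. Some protein-coding genes that the rule would take, among them *Cdh18*, *Ctnna2*, *Dsc1*, *Dsp* and *Itgb3*, were not analysed here, and neither was *Itgav*, the αV integrin chain, whose symbol the rule does not take.

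RNA came from LECs, collected with the lens capsule, of 5-week-old Shumiya cataract rats (SCRs), a strain in which the alleles at the lanosterol synthase locus govern lens opacity. Rats of the Cat- sample had the genotype Lss(s)/Lss(s) and keep clear lenses, and those of the Cat+ sample had Lss(s)/Lss(l). The strain also carries mutant *Fdft1* alleles. Per sample, RNA of 2 eyes went on 1 GeneChip Rat Gene 2.0 ST array, so no value has an error between animals, no test was possible, and how many rats gave each pool is not given in the sources used here. Values are normalized log2 signals. The fold change, or ratio, is that of the linear signals, Cat+ over Cat-. The size rule of the study is a fold change under 0.5 or over 2, and narrower limits of 1.5-fold and 1.2-fold are used beside it. As a scale for small differences, probe sets of the same gene differed in their log2 difference with an SD of 0.17 (291 genes with more than 1 probe set), a factor of 1.13. This SD covers probe sets and not animals.

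Integrins are pairs of an α and a β chain that bind laminin, collagen and other matrix proteins outside the cell and, through talin and other adaptors, the actin skeleton inside it. Classical cadherins join neighbouring cells and are tied to actin by β-catenin and α-catenin, while p120-catenin holds them at the membrane. Nectins start such contacts, desmosomal cadherins anchor intermediate filaments, and claudins with occludin seal the space between cells on a scaffold of ZO proteins. In the vertebrate lens, E-cadherin marks the epithelium, N-cadherin is found in both the epithelium and the fibers, and laminin receptors face the capsule.

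None of the 91 genes had a ratio under 0.5 or over 2. Over all genes, 0.308% were under 0.5 and 0.00550% over 2, so the absence of such genes among 91 is close to what that background gives. Past 1.5-fold there was 1 gene, *Ctnna3*, which was lower in Cat+, beside a background of 0.991% lower and 0.204% higher. Past 1.2-fold there were 3 lower and 3 higher genes, or 6.59% in either direction, while 14.3% of all genes lay past that limit (8.33% lower and 6.01% higher). The median log2 difference was 0.0083 over the 91 genes and -0.0049 over all genes, with 47 members higher and 44 lower in Cat+. The SD of the log2 differences was 0.16 over the members and 0.21 over all genes.

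The table has no detection calls. As a guide to genes that lens cells are not expected to use, 227 olfactory and vomeronasal receptor genes of the nose were taken, and the 95th percentile of their log2 signals, 5.36 in Cat- and 5.36 in Cat+, is called the silent level here. By this guide 62 of the 91 members were above the silent level on at least 1 array and 29 were at or under it on both, and probe sets differ in brightness for reasons other than RNA level. With the 99th percentile of the receptor genes, 6.08 in Cat- and 5.94 in Cat+, 38 members were above. Of the 62 members, 31 were higher and 31 lower, and 6.45% were past 1.2-fold, beside 17.4% of the 13338 genes above the silent level. Of the 6 members past 1.2-fold, *Cdh9* and *Cldn34b* were at or under the silent level on both arrays, and the other 4 were *Ctnna3*, *Itga1*, *Itga5* and *Itgb3bp*.

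**Figure D1:**
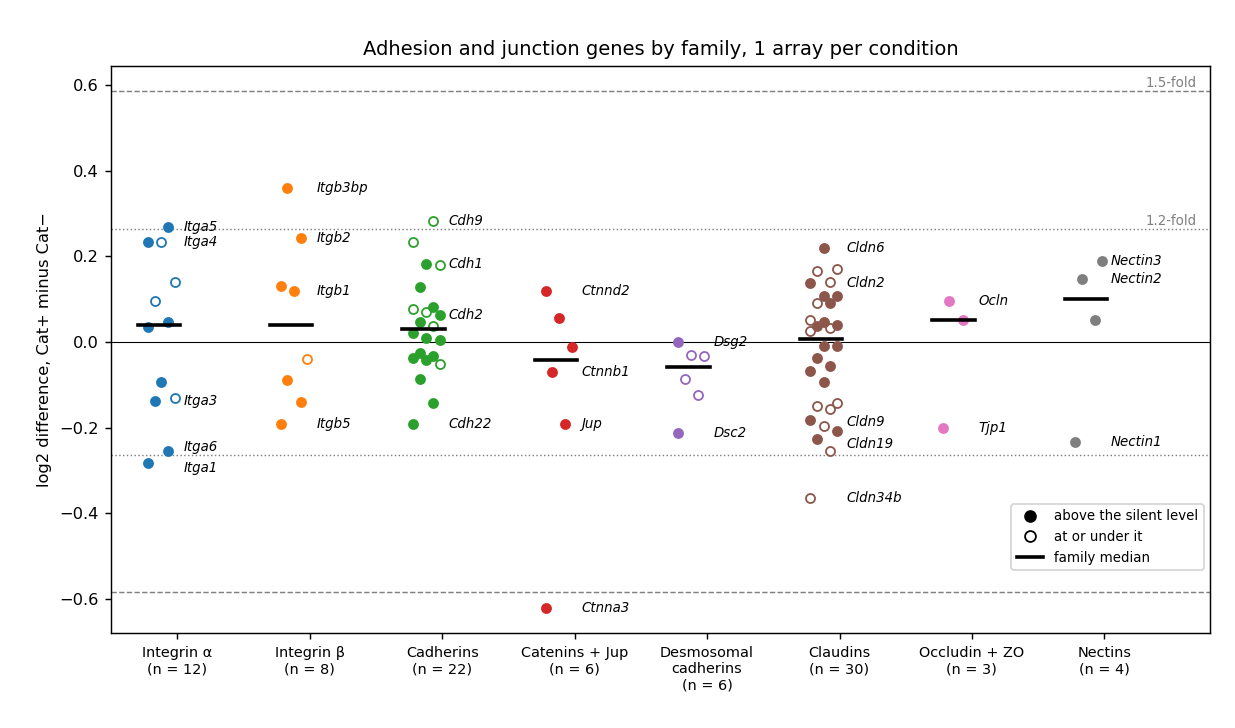
Log2 difference in signal, Cat+ minus Cat-, of each of the 91 genes by family, with 1 point per gene, filled where the gene is above the silent level and open where it is not, and bars at family medians. Dotted lines mark 1.2-fold and dashed lines 1.5-fold, and *Ctnna3* at -0.62 is the only point past the dashed lines.

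Among the integrin α chains, 12 were measured and 8 of these were above the silent level, of which 4 were higher and 4 lower in Cat+. *Itga6*, the α6 chain of laminin receptors that epithelial cells use to hold on to a basement membrane, had log2 signals of 7.52 in Cat- against 7.26 in Cat+, a ratio of 0.838 that stops just short of the 1.2-fold limit. *Itga3*, the α3 chain of another laminin receptor, gave log2 signals of 8.51 in Cat- against 8.37 in Cat+, a ratio of 0.909. *Itga7*, the laminin-binding chain best known from muscle, had log2 signals of 5.70 and 5.74. *Itgb4*, the β4 chain that pairs with α6 in hemidesmosomes, gave log2 signals of 5.75 in Cat- against 5.66 in Cat+, a ratio of 0.941. Of these 4 laminin-binding chains, 3 were lower and 1 was higher in Cat+, and none was past 1.2-fold.

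*Itga1*, a collagen-binding chain, had a log2 signal of 5.93 in Cat- against 5.65 in Cat+, a ratio of 0.822, the lowest of the α chains. Both of its signals lie under the 99th percentile of the receptor genes. *Itga11*, a collagen-binding chain of mesenchymal cells, had log2 signals of 8.25 and 8.16, and *Itga2*, another collagen-binding chain, had log2 signals of 6.40 and 6.43. The collagen-binding chains therefore spread from a fold change of 0.822 to 1.02 among those above the silent level. *Itga5*, the α5 chain of the fibronectin receptor, gave log2 signals of 6.16 in Cat- against 6.43 in Cat+, a log2 difference of 0.27. It was the only α chain past the 1.2-fold limit in the higher direction, and only just. With the median difference of all probe sets subtracted, its log2 difference was 0.2627 and no longer past that limit.

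Of the β chains, *Itgb1*, the partner of most of the laminin and collagen receptors, had a log2 signal of 9.60 in Cat- against 9.72 in Cat+, a ratio of 1.08. In mouse the β1 chain is needed for the survival of the lens epithelium. *Itgb5* and *Itgb8*, both partners of αV, had fold changes of 0.875 (log2 signals of 7.96 and 7.76) and 0.907 (log2 signals of 6.90 and 6.76). Without *Itgb3bp*, the β chains ran from 0.875 for *Itgb5* to 1.18 for *Itgb2*. *Itgb3bp* itself, a kinetochore component, gave log2 signals of 5.92 in Cat- against 6.28 in Cat+, a ratio of 1.28, the highest of the 91 genes.

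Among the members known from leukocytes, *Itgb2* and *Itga4* were above the silent level on both arrays, and *Itgb7* was above it in Cat+ but not in Cat-. *Itgb2*, the β2 chain of leukocyte integrins, gave log2 signals of 6.03 in Cat- against 6.28 in Cat+, a ratio of 1.18, *Itga4*, the α4 chain of lymphocytes and monocytes, gave log2 signals of 5.54 in Cat- against 5.77 in Cat+, a ratio of 1.18, and *Itgb7*, a partner of α4, had log2 signals of 5.34 and 5.47. *Itgal*, the αL partner of β2, which the symbol rule does not take, gave log2 signals of 5.70 in Cat- against 5.97 in Cat+, a ratio of 1.21, whereas *Itgam*, *Itgax* and *Itgad* were at or under the silent level on both arrays. Both signals of *Itga4* and of *Itgb7* lie under the 99th percentile of the receptor genes, and those of *Itgb2* and *Itgal* do so in Cat- only. All 12 markers of macrophages and leukocytes were above the silent level and higher in Cat+, where 8862 of all 18166 genes were higher. Past 1.2-fold were 8 of the 12, beside 6.01% of all genes higher past that limit, and the markers' median fold change was 1.28. The summed signal of the 12 markers on the linear scale was 1675 array units in Cat- and 2277 in Cat+. The part of these cells in the integrin values was not tested, and in such pooled tissue more cells of a type and more RNA per cell cannot be told apart.

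Among 22 cadherins, 15 were above the silent level, of which 8 were higher and 7 lower, and none of the 15 was past 1.2-fold. Of the 13338 genes above the silent level, 17.4% were past that limit in either direction. With only 15 genes, the absence is not read as a trait of cadherins. *Cdh2*, N-cadherin, had a log2 signal of 10.62 in Cat- against 10.68 in Cat+, a ratio of 1.04. *Cdh1*, E-cadherin, had log2 signals of 9.65 and 9.83. *Cdh3*, the placental cadherin, and *Cdh11*, a type II cadherin of mesenchymal cells, had log2 signals of 7.72 and 7.73 and of 7.55 and 7.57, log2 differences of 0.01 and 0.02. *Cdh22*, a type II cadherin, had the lowest value of these 15, a ratio of 0.875, with log2 signals of 5.80 and 5.61. *Cdh5*, the cadherin of blood vessels, gave log2 signals of 6.06 in Cat- against 6.19 in Cat+, a ratio of 1.09, and 8 measured vessel markers, of which *Cdh5* and *Cldn5* are 2, had a median fold change of 1.05. The SD of the log2 difference was 0.10 over the 15 cadherins, which is smaller than the 0.17 found between probe sets that share a gene.

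The catenins held the member with the lowest fold change of all. *Ctnna3*, αT-catenin, an actin linker best known from heart muscle, had a log2 signal of 6.25 in Cat- against 5.63 in Cat+, a ratio of 0.651. It was above the 99th percentile of the receptor genes in Cat- and under it in Cat+. *Ctnna1*, the αE-catenin of epithelia, gave log2 signals of 8.43 in Cat- against 8.42 in Cat+, a ratio of 0.992. *Ctnnb1*, β-catenin, gave log2 signals of 9.94 in Cat- against 9.87 in Cat+, a ratio of 0.952, and *Ctnnd1*, p120-catenin, gave log2 signals of 8.56 and 8.62, a ratio of 1.04. *Ctnnd2*, a member of the p120 family known from neurons, had log2 signals of 8.46 and 8.58. *Jup*, plakoglobin, the catenin that serves desmosomes as well as cadherin junctions, gave log2 signals of 8.96 in Cat- against 8.77 in Cat+, a ratio of 0.876. All catenins other than *Ctnna3* thus lay between 0.876 and 1.09.

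**Figure D2:**
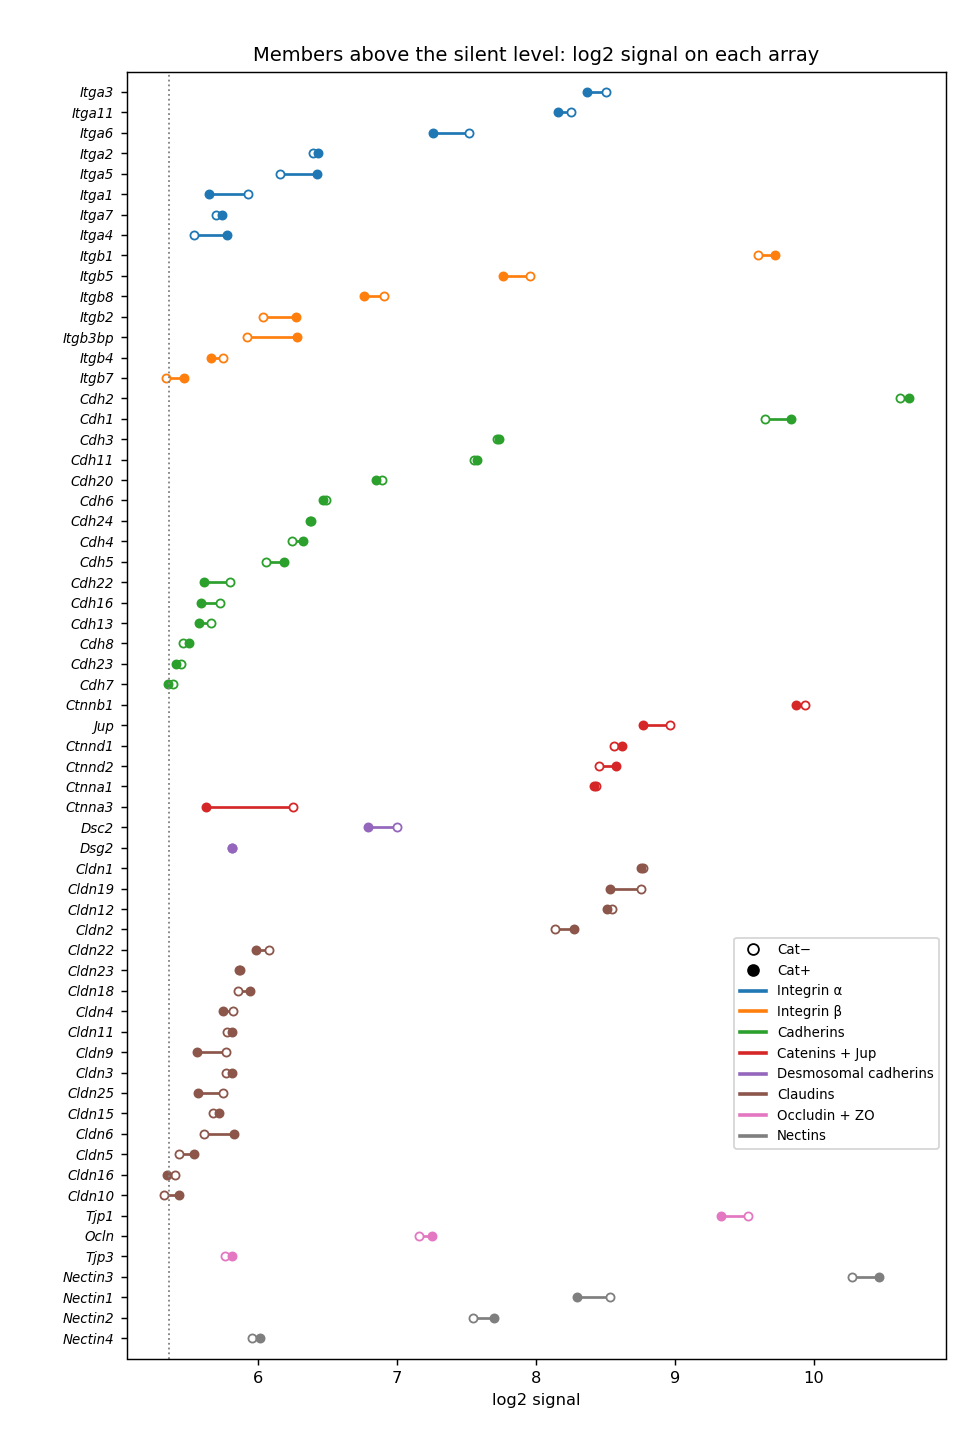
Log2 signal on the Cat- array (open points) and the Cat+ array (filled points) of the 62 members above the silent level, each line joining both values of a gene and the dotted line standing at the silent level of Cat-. The lines are short for *Cdh2*, *Ctnna1* and *Cldn1*, and the longest is that of *Ctnna3*, from 6.25 to 5.63.

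All 6 measured desmosomal cadherins were lower in Cat+, but 4 of them were at or under the silent level on both arrays. *Dsc2*, a desmocollin of simple epithelia, had a log2 signal of 7.00 in Cat- against 6.79 in Cat+, a ratio of 0.863. *Dsg2*, its desmoglein partner, gave log2 signals of 5.82 in Cat- against 5.81 in Cat+, a ratio of 0.999. *Dsg3*, a desmoglein of stratified epithelia that was under the silent level, had log2 signals of 5.27 and 5.24. The whole range of this family, from 0.863 to 0.999, lay within 1.2-fold.

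Among 30 claudins, 17 were above the silent level, of which 8 were higher and 9 lower, with none past 1.2-fold. Of all 13338 genes above that level, 6287 were higher and 7051 lower, and 17.4% were past 1.2-fold in either direction. With only 17 genes, the absence is not read as a trait of claudins. *Cldn19*, known from kidney tubules and the retinal pigment epithelium, had a log2 signal of 8.76 in Cat- against 8.53 in Cat+, a ratio of 0.855, the lowest of the 17. *Cldn1*, a barrier claudin of epithelia, gave log2 signals of 8.77 in Cat- against 8.76 in Cat+, a ratio of 0.993, and *Cldn12* gave log2 signals of 8.55 and 8.51, a ratio of 0.974. *Cldn2*, which forms pores for cations, gave log2 signals of 8.14 and 8.27, a ratio of 1.10. *Cldn6*, a claudin of embryonic epithelia, had the highest fold change of the 17, at 1.16, with log2 signals of 5.61 and 5.83. *Cldn5*, the claudin of blood vessels, had log2 signals of 5.43 and 5.54, just over the silent level. The genes of the *Cldn34* group were all under the silent level, and *Cldn34b*, with log2 signals of 5.00 and 4.64, is not read further.

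*Tjp1*, which encodes the scaffold protein ZO-1, had a log2 signal of 9.53 in Cat- against 9.33 in Cat+, a ratio of 0.870. *Ocln*, occludin, gave log2 signals of 7.16 in Cat- against 7.25 in Cat+, a ratio of 1.07, and *Tjp3*, ZO-3, had log2 signals of 5.76 and 5.82. The nectins diverged, with *Nectin1* lower and the other 3 higher in Cat+. *Nectin1* gave log2 signals of 8.53 in Cat- against 8.30 in Cat+, a ratio of 0.851, and *Nectin3*, its binding partner on the facing cell, gave log2 signals of 10.28 and 10.47, a ratio of 1.14. In mouse this pair joins the pigmented and non-pigmented layers of the ciliary epithelium. *Nectin2* gave log2 signals of 7.55 in Cat- against 7.70 in Cat+, a ratio of 1.11. Among 8 measured markers of the iris and ciliary body, 6 were higher and 2 lower, with a median fold change of 1.11 and a summed linear signal of 1940 array units in Cat- and 2144 in Cat+. The part of such cells in the nectin values was not tested.

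A difference between 2 genes on the same array is not moved by a constant factor between the arrays, though it does move with a scaling that varies with signal, such as quantile or loess, and 9 such pairs were picked after the values were seen. *Nectin3* gained 0.42 on the log2 scale relative to *Nectin1* in Cat+, a factor of 1.34. *Itga5* gained 0.52 relative to *Itga6*, a factor of 1.44, and *Itga6* changed by -0.37 relative to *Itgb1*. *Ctnna3* changed by -0.61 relative to *Ctnna1*, a factor of 0.656. The shift between *Cdh1* and *Cdh2* was smaller, 0.12, and that between *Jup* and *Ctnnb1* was -0.12. *Tjp1* changed by -0.30 relative to *Ocln*. With 1 array per condition, none of these shifts has an error.

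Some members are neighbours in the genome, with no other protein-coding gene between them in the RefSeq annotation of the rat assembly GRCr8, and 17 such pairs were found. Both genes were above the silent level in 6 pairs, and they moved in the same direction in 3 and in opposite directions in 3. *Cdh1* was higher at a fold change of 1.13 beside *Cdh3* at 1.01. *Itga1* was at 0.822 beside *Itga2* at 1.02, and *Cldn6* was at 1.16 beside *Cldn9* at 0.865. The desmosomal cadherins form a cluster of which all 6 measured genes were lower, but 4 of them were at or under the silent level on both arrays. The other 2 were *Dsc2*, at a fold change of 0.863, and *Dsg2*, at 0.999.

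**Figure D3:**
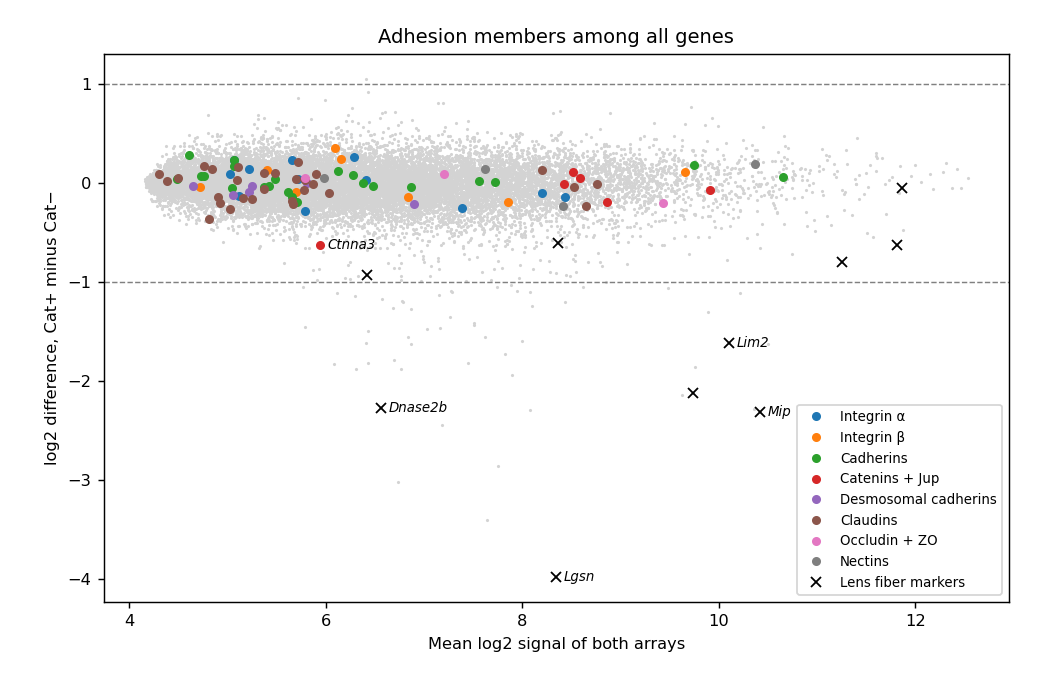
Log2 difference, Cat+ minus Cat-, against the mean log2 signal of both arrays for all 18166 genes (grey), the 91 adhesion and junction genes (coloured by family) and 10 lens fiber markers (crosses), with dashed lines at 2-fold. The coloured points stay inside the dashed lines at every signal level, while 5 of the crosses lie below them.

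Both arrays carried signal of lens cells. All 12 listed markers of the lens epithelium, which include *Cdh1*, and all 10 measured markers of lens fibers were above the silent level. The fiber markers had a median fold change of 0.415 and a summed linear signal of 20250 array units in Cat- and 10524 in Cat+. Of the 10, 5 were under 0.5, namely *Lgsn*, *Mip*, *Dnase2b*, *Bfsp1* and *Lim2*, beside 0.308% of all genes. The study had already named these genes as lower from the same arrays. Their low values were thus known when the list was chosen, and the list is no independent contrast to the other medians. The epithelial markers had a median of 1.06, beside 1.01 over the adhesion genes, and a summed linear signal of 20431 and 21019, and *Sfrp1*, a secreted Wnt inhibitor, was the only epithelial marker past 1.2-fold, with log2 signals of 10.47 and 9.70. The part of fiber material in the values of the adhesion genes was not tested. Markers of retina were present on both arrays, with 9 measured, 7 of them higher, a median fold change of 1.07 and a summed signal of 1734 and 2284 units. Past 1.2-fold, 4 were higher and 2 lower, beside 6.01% higher and 8.33% lower over all genes. The higher ones were *Gnat1* at 1.51, *Sag* at 1.37, and *Pde6a* and *Pde6b* at 1.34. The lower ones were *Opn1sw* at 0.751 and *Crx* at 0.817, so the median hides a split. The 8 measured markers of cornea and surface epithelium had a median of 0.950, with sums of 401 and 390 units, and those of blood vessels had sums of 428 and 427 units. All measured markers of both lists lay under the 99th percentile of the receptor genes in Cat-. In Cat+ only *Aldh3a1*, *Krt13*, *Esam* and *Cdh5* were above it. These sums thus come from dim signals and say little about the amount of such cells.

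The cytoplasmic adaptors that link integrins to actin were read beside the chains. Of 25 measured adaptors and signalling genes, 5 were past 1.2-fold lower and 1 higher, beside 8.33% lower and 6.01% higher over all genes, and the list's median fold change was 0.972. The higher one was *Itgb3bp*, the centromere protein, so no adaptor proper was higher past that limit. *Lims2*, the PINCH2 adaptor that binds integrin-linked kinase, had a log2 signal of 6.32 in Cat- against 5.63 in Cat+, a ratio of 0.618. *Parvb*, β-parvin, of the same complex, gave log2 signals of 7.98 in Cat- against 7.62 in Cat+, a ratio of 0.779. *Zyx*, zyxin, a focal adhesion protein, gave log2 signals of 7.69 in Cat- against 7.27 in Cat+, a ratio of 0.746, and *Pxn*, paxillin, gave log2 signals of 7.76 and 7.42, a ratio of 0.786. *Tln1*, talin, which switches integrins on, gave log2 signals of 7.72 in Cat- against 7.45 in Cat+, a ratio of 0.828. Within the 1.2-fold limit, *Ilk*, integrin-linked kinase itself, was at a fold change of 0.879 and *Src*, a tyrosine kinase of focal adhesions, at 0.867, while *Fermt2*, kindlin-2, was at 0.988, *Ptk2*, focal adhesion kinase, at 1.01 and *Vcl*, vinculin, at 1.04.

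Of 17 measured partners of cadherin, desmosome and nectin junctions, 2 were past 1.2-fold lower and 1 higher. Over all genes, 8.33% were lower and 6.01% higher past that limit, and the median fold change of the 17 partners was 0.986. *Arvcf*, a catenin of the p120 family whose symbol the rule does not take, had a log2 signal of 9.23 in Cat- against 8.40 in Cat+, a ratio of 0.560. This is lower than any of the 91 members. *Evpl*, envoplakin, gave log2 signals of 5.68 in Cat- against 5.40 in Cat+, a ratio of 0.823, with both signals under the 99th percentile of the receptor genes. *Pkp2*, plakophilin 2, an armadillo protein of desmosomes, gave log2 signals of 8.67 in Cat- against 9.05 in Cat+, a ratio of 1.29, and *Afdn*, afadin, which ties nectins to actin, gave log2 signals of 8.20 and 8.39, a ratio of 1.14.

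Of 23 other tight junction and polarity genes, 1 was past 1.2-fold lower and 1 higher, beside 8.33% lower and 6.01% higher over all genes. *Crb1*, a Crumbs polarity protein, gave log2 signals of 6.07 in Cat- against 5.68 in Cat+, a ratio of 0.762, and *Pals1*, which binds Crumbs, gave log2 signals of 7.12 and 7.42, a ratio of 1.23. Of 23 atypical cadherins, protocadherins and relatives, 4 were past 1.2-fold and all 4 were lower, where 8.33% of all genes were lower past that limit. These were *Fat2* at 0.694, *Pcdh1* at 0.751, *Celsr2*, of planar cell polarity, at 0.761, and *Fat3* at 0.817, and the median of the list was 0.945. *Fat2* fell under the silent level in Cat+, and both signals of *Pcdh1*, like those of *Crb1*, lie under the 99th percentile of the receptor genes. Of 17 integrin ligands of the matrix, 3 were lower past 1.2-fold and none was higher, against the same 8.33% lower and 6.01% higher of all genes. The 3 were *Fn1*, fibronectin, with log2 signals of 5.96 and 5.62, *Col4a2*, a collagen IV chain, with 8.50 and 8.19, and *Lamb2*, a laminin chain, with 7.25 and 6.97. Both signals of *Fn1*, at a fold change of 0.791, lie under the 99th percentile of the receptor genes.

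Since a switch from E-cadherin to N-cadherin marks the change of epithelial cells into mesenchymal cells, genes of that transition were read beside the cadherins. Of 14 measured, 10 were higher and 4 lower, where 8862 of all 18166 genes were higher, and the list includes *Cdh2* and *Cdh11*. Past 1.2-fold none was higher and 2 were lower, beside 6.01% higher and 8.33% lower over all genes. *Twist1* and *Twist2*, both counted as higher, were at or under the silent level on both arrays. *Snai1* and *Zeb1*, both repressors of E-cadherin, had log2 signals of 5.36 and 5.39 and of 7.21 and 7.21, and *Zeb2* gave log2 signals of 8.46 and 8.70, a ratio of 1.18. *Vim*, vimentin, had log2 signals of 12.10 and 12.19. *S100a4*, a calcium-binding protein, was the only gene of the list past 2-fold, at a fold change of 0.479, where 0.308% of all genes were under 0.5. *Fn1* was the other gene past 1.2-fold. Among 8 measured housekeeping genes, 2 were past 1.2-fold lower and 2 higher, beside 8.33% lower and 6.01% higher over all genes. The lower ones were *Rplp0* at 0.709 and *Pgk1* at 0.819, and the higher ones *Tbp* at 1.29 and *B2m* at 1.40. Differences of that size thus also occurred in genes used as references, in this short list more often than over all genes.

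**Figure D4:**
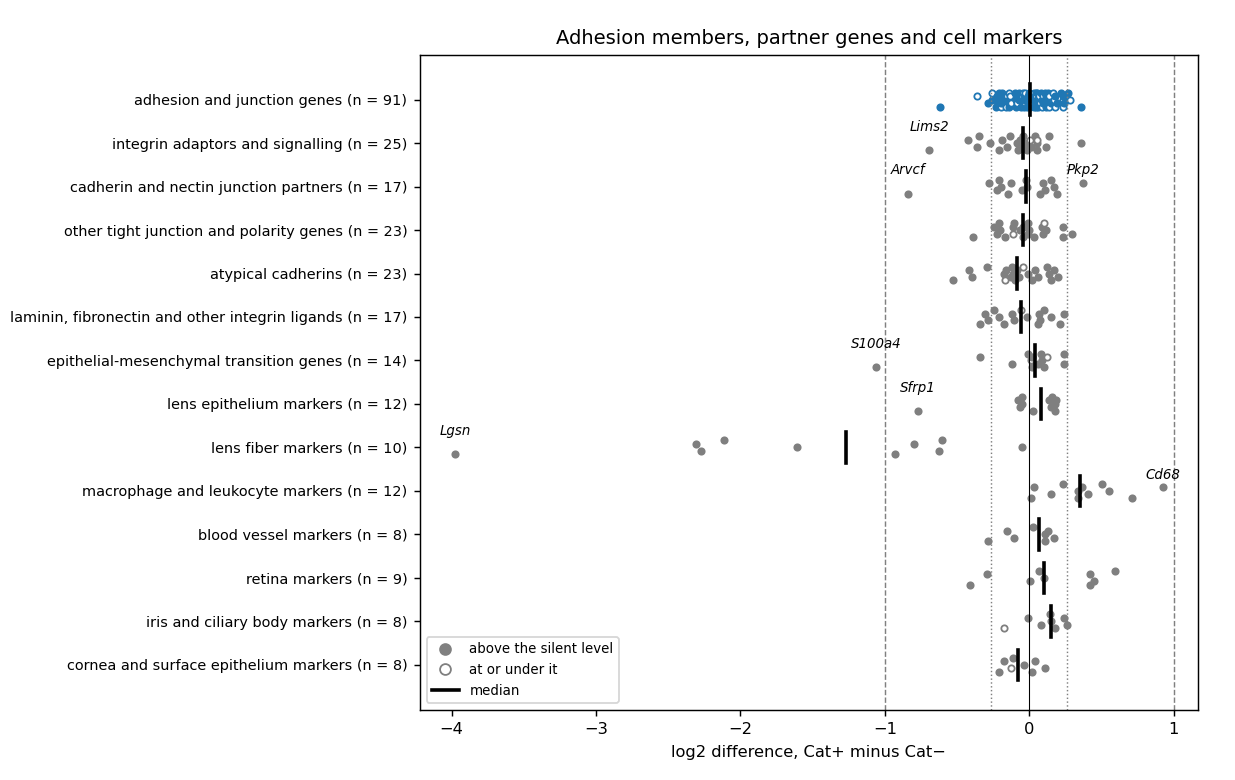
Log2 difference, Cat+ minus Cat-, of the 91 adhesion and junction genes (blue) and of the genes of 13 other lists (grey), 1 point per gene, with a bar at each list's median, dotted lines at 1.2-fold and dashed lines at 2-fold. The blue points span -0.62 to 0.36, the lens fiber markers reach -3.98, and macrophage and leukocyte markers are all above 0.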

How the data were processed

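RNA of LECs from 5-week-old SCRs was hybridised to GeneChip Rat Gene 2.0 ST arrays, with 1 array for Cat- and 1 for Cat+. The deposited table holds a normalized log2 value per array for each of 29870 probe sets. Per the methods, each array was normalized on its own against a control or its average intensity. How background was corrected and probes were summarized, and the genome build, are not stated in the sources used here. The log2 scale was read from the values and from the logarithmic axes of the scatter plot. Normalization of each array on its own centres it, so a shift shared by most genes would not be seen.

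The platform annotation names 1 gene for 18511 probe sets, several for 575 and none for 10784, and 18394 were found by Entrez ID in RefSeq (GRCr8). Where a gene had more than 1 probe set, the probe set with the highest mean signal was used. Log2 differences were taken with no further normalization or filter. The number of arrays limits the precision, and no test was run. The step that counts genes past a limit was tested on simulated data. The members and the gene lists were chosen with earlier results of these data known. Named are members past 1.2-fold above the silent level, the 3 brightest and the extremes of each family, genes with a known place in lens and up to 4 genes of each list; members and list genes outside this rule were named after their values were seen. Alternatives were other array scalings, probe set rules, filters, a floor at the 20th percentile, a 3-fold limit and other silent levels. Values were computed in Python 3.11.15 with pandas 2.3.3 and NumPy 2.4.6, curves were fitted with statsmodels 0.14.6 and plots drawn with matplotlib 3.10.9.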

Additional observations from a re-analysis of the deposited data

How the results depend on the processing

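The counts of members past 2-fold, 1.5-fold and 1.2-fold stayed within 1.5 times their values under every alternative run, and the median over the members moved by less than the SD between probe sets divided by the square root of the number of genes, the tolerance used for medians. With only genes above the silent level, the family median of the integrin α chains was -0.0299 in place of 0.0401. That of the β chains, in which *Itgb3bp* is still counted, was 0.1177 in place of 0.0391. Of the list of α chains and *Itgbl1* outside the symbol rule, only *Itgal* and *Itgbl1* remained, with a median of 0.1931 in place of 0.1110. Leaving out *Itgb3bp*, an alternative added after the data were seen, gave -0.0395 for the β chains with no signal filter. The filter and this omission were not combined. With only genes above the array median, the α chains were at -0.0299, the lens epithelium markers at 0.0259, the blood vessel markers at -0.1072, the retina markers at 0.2600, the cornea markers at 0.0179 and the integrin ligands at -0.1111. Of the list outside the symbol rule only *Itgal* remained under that filter, so its value of 0.2751 is that of a single gene. With the 99th percentile of receptor genes as the silent level, 38 members were above it in place of 62. No paired analysis was possible because each condition has 1 array, and for the same reason no replicate could be left out. No array signal over background can be given, so dim members have no stated limit of detection.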
